A study of Mus musculus with 19 samples.

Results

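A set of 10 genes for ligand-activated nuclear receptors was followed through the chromatin immunoprecipitation sequencing (ChIP-seq) peak lists of SPEN in mouse testis: Esr1, Esr2, Nr3c1, Rara, Rarb, Rarg, Vdr, Ppara, Ppard and Pparg. Peaks were taken by the gene name that the authors' annotation gave them. A total of 50 of the 80795 peaks in 19 libraries carried such a name, of which 25 lay within 50 kb of a transcription start site (TSS) and 19 within 5 kb. All animals were adult FVB/N males of 10 to 16 weeks. In mixed testicular cells, 3 libraries came from an antibody to the SPEN N terminus and stood for cells untreated, heated to 38 °C for 15 min, or heated to 38 °C for 30 min with 2 h of recovery. An antibody against an internal part was used in 9 libraries of the same cells, namely untreated and at 38 °C or 43 °C for 15 min, 30 min, or 30 min with 2 h or 4 h of recovery. It was also used in 4 libraries of a spermatocyte fraction, enriched up to 80% by sedimentation, which were untreated or at 43 °C for 30 min with 0, 2 or 4 h of recovery. Cells were otherwise held at 32 °C. The 3 background libraries were rabbit serum IgG and input of testicular cells, each mixed over all treatments, and mixed input of spermatocytes.

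Each library pooled 5 to 6 precipitations, so each condition had 1 library, values have no replicate error, and every comparison is between libraries and without a test. Lists held 1641 to 29315 peaks, and read depth is unknown. A peak is called antibody-specific here when it shared no base with any peak of IgG or of either input. The untreated testicular list of the internal antibody, with 27370 such peaks, and the spermatocyte list at 4 h of recovery, with 8164, were far longer than the other 14 SPEN lists, which had 333 to 1442. Background lists held 476 to 1214 peaks outside the other background lists, so an antibody-specific peak is not by itself a SPEN site. Tubules were washed to take out interstitial and blood cells, according to the labels' protocols, so few of the steroid-producing interstitial cells are meant to remain. Peak lists do not measure expression, so the labelled cell types could not be checked with marker genes.

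Nuclear receptors are transcription factors that bind DNA and change partners with their ligand. Without hormone, retinoic acid and thyroid hormone receptors recruit corepressor complexes built on NCoR and SMRT with a histone deacetylase, and SPEN, also known as SHARP or MINT, was described as a partner of such complexes and of the steroid receptor RNA activator. In the testis, retinoic acid starts spermatogonial differentiation and meiosis, and steroid hormones act largely through somatic cells.

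Start sites are shown for the genes with an antibody-specific peak within 5 kb whose promoter was in the RefSeq table (GRCm38.p6, the same assembly as mm10): both start sites of Esr1 from which its peaks were measured, and the Pparg start site from which its near peak was measured. Each runs from 250 bases before the TSS to 50 after it, and capitals mark the nuclear receptor hexamer AGGTCA on either strand.
Esr1, upstream TSS, chr10:4611739-4612038, plus strand: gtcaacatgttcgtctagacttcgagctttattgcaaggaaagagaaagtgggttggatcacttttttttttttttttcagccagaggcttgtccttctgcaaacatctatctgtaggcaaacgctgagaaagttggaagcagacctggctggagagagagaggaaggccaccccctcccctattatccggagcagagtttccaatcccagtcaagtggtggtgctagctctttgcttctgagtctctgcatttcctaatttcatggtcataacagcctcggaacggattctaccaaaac
Esr1, downstream TSS, chr10:4709908-4710207, plus strand: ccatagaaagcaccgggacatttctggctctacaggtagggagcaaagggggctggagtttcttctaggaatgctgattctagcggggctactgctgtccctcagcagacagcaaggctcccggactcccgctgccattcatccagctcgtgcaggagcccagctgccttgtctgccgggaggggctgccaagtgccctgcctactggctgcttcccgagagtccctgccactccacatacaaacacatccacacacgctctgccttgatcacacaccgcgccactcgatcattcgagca
Pparg, chr6:115362099-115362398, plus strand: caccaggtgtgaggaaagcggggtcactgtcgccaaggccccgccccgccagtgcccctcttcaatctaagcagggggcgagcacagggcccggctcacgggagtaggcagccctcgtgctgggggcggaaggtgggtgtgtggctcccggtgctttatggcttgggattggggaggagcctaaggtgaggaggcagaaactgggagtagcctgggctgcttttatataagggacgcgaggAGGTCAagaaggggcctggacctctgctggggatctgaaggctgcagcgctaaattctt
Neither Esr1 sequence held the hexamer. The Pparg sequence held 1, beginning at -9 relative to the TSS.

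The TSS implied by the authors' distances was the same base as a RefSeq TSS for every peak of Esr1, Esr2, Rarb and Pparg within 50 kb. No peak of the 10 genes in any of the 19 lists shared a base with one of the 16 listed promoter windows. The windows covered 9 of the genes and not Nr3c1, whose peaks could not be checked against its promoter in this way. Of these windows, 4 held AGGTCA (in Pparg, Rara and Rarg), as did 16.3% of all 32851 windows of this length. None held a direct repeat of it spaced by 1, 3 or 5 bases (AGGTCANAGGTCA, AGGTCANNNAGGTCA or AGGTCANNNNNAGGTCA) or the inverted repeat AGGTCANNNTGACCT, the steroid receptor palindrome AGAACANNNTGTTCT or the heat shock element (GAA, TTC and GAA, each spaced by 2 bases), each searched on both strands. Those motifs were in 0.0396%, 0.00609%, 0.00913%, 0.0213%, 0.00913% and 0.603% of all windows. The longer motifs contain the hexamer where they are built from it, and exact letters are a description and not a binding site.

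Antibody-specific peaks within 5 kb of a TSS were found at 3 of the 10 genes, Esr1, Nr3c1 and Pparg, and within 50 kb also at Esr2 and Rarb. There were 9 such peaks in all, 7 in the untreated testicular library of the internal antibody and 2 in spermatocytes at 4 h of recovery from 43 °C. Rara, Rarg, Vdr, Ppara and Ppard had no peak in any of the 19 lists, at any distance. In the untreated testicular library 2 of 10 genes had an antibody-specific peak within 5 kb, where 19.4% of 21883 protein-coding genes did (exact Clopper-Pearson 95% interval 18.9 to 19.9%, counting error only). Within 50 kb the count was 4 of 10 beside 36.4% (35.7 to 37%). The shares of the receptor genes were thus near those of all genes.

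**Figure D1:**
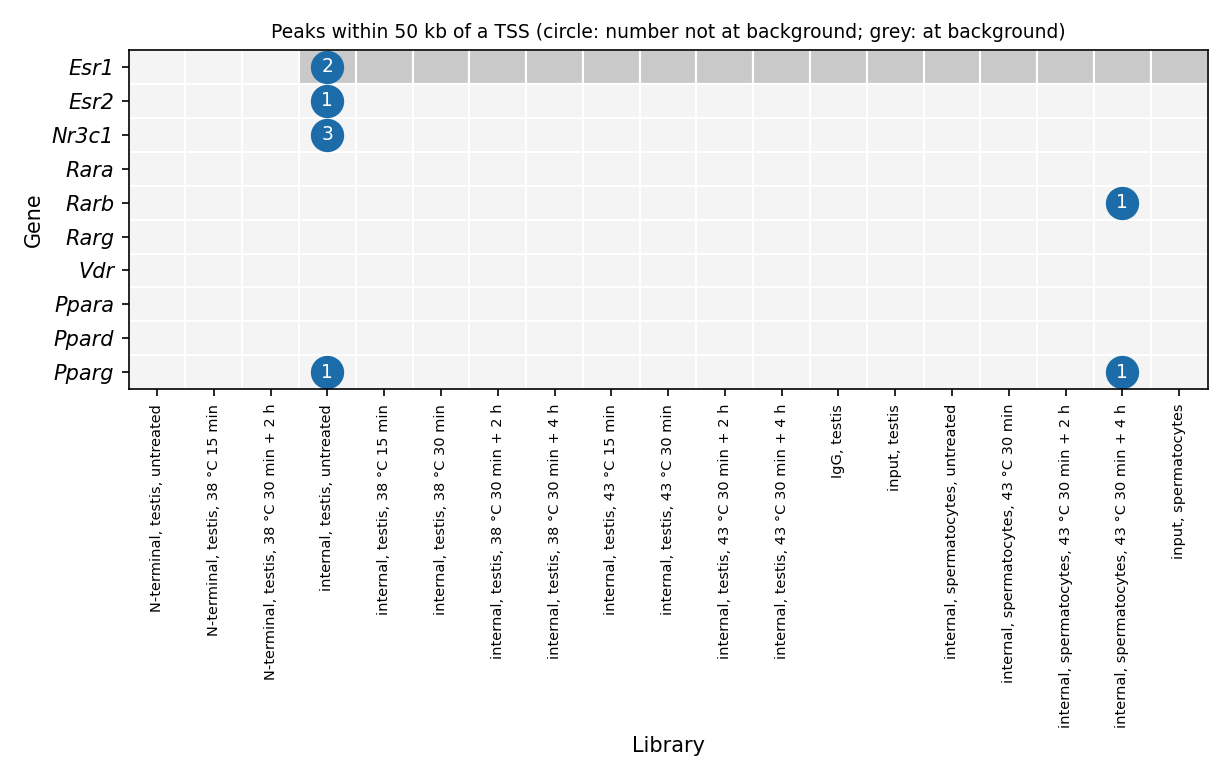
Peaks within 50 kb of a TSS for the 10 receptor genes (rows) in the 19 libraries (columns). Circles give the number of antibody-specific peaks and grey cells mark a peak at a background position. The circles stand in the untreated testicular library, with 7 peaks, and the spermatocyte library at 4 h of recovery, with 2, and the grey cells stand in the Esr1 row of all 16 libraries other than the N-terminal ones.

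Esr1, which encodes estrogen receptor alpha, had the strongest antibody-specific peak within 50 kb of a TSS among the 10 genes. In the untreated testicular library of the internal antibody, exon 2 held a peak at chr10:4712607-4712833 with the authors' peak score of 91.4, 2562 bp downstream of the second TSS. The score is the peak caller's own value with a floor of 50 in every list, and 80.4% of the antibody-specific peaks of that library scored lower. A second peak in the same library lay in an Lx3_Mus LINE element of intron 1, 29023 bp from the first TSS, with a score of 52.1. No other library had an antibody-specific peak at Esr1 within 50 kb. Beyond it, spermatocytes at 4 h of recovery had 1, in an L1Md_F2 element 84290 bp from the TSS (score 54.6).

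The most recurrent peak of the receptor genes also lay in Esr1, and it was a background position. Intron 1 holds a run of the telomeric repeat TTAGGG, and at chr10:4614317-4614567, 2416 to 2484 bp from the first TSS, a peak was called in 16 of 19 libraries. These were all 13 libraries of the internal antibody and all 3 background libraries. None of the 3 N-terminal libraries had it. Peaks were 123 to 220 bp wide, and 13 of the 16 were annotated to the repeat and 3 to the intron around it.

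In untreated testicular cells this locus scored 79.5. After heat at 38 °C its score was 91.5 at 15 min, 107 at 30 min, 128 at 2 h and 141 at 4 h of recovery. After 43 °C it was 133 at 15 min, 101 at 30 min, 75.8 at 2 h and 120 at 4 h of recovery. By score the locus was thus above the untreated one in 7 of the 8 heat-shocked testicular libraries, the exception being 2 h of recovery from 43 °C. In spermatocytes it was 121 untreated, 86.5 at 30 min, 83.1 at 2 h and 116 at 4 h of recovery, so that all 3 heat-shocked libraries were below the untreated one by score. IgG gave 123, testicular input 91.3 and spermatocyte input 62.1. Of the 13 internal antibody libraries 3 scored above the highest background library and none below the lowest, and scores are not scaled for depth between lists. By the share of its own list that scored lower, the order was less one-sided. The locus stood above 69% of the peaks in untreated testicular cells, and 5 of the 8 heat-shocked libraries, which ranged from 48.7% to 77.4%, were higher. In spermatocytes it stood above 63.5% of the peaks untreated, 50.4% at 30 min, 48.3% at 2 h and 85.9% at 4 h. The last was thus higher than the untreated one by this share although lower by score. By position from the top, the locus was number 9076 of 29315 in untreated testicular cells and number 555 to 1420 in the 8 heat-shocked libraries. In spermatocytes it was number 650 of 1783 untreated and 1366 of 9707 at 4 h. Share and position both depend on list length, which was not adjusted for. Among the background libraries the locus stood above 70.8% of the IgG peaks, 61.1% of the testicular input peaks and 24.9% of the spermatocyte input peaks.

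**Figure D2:**
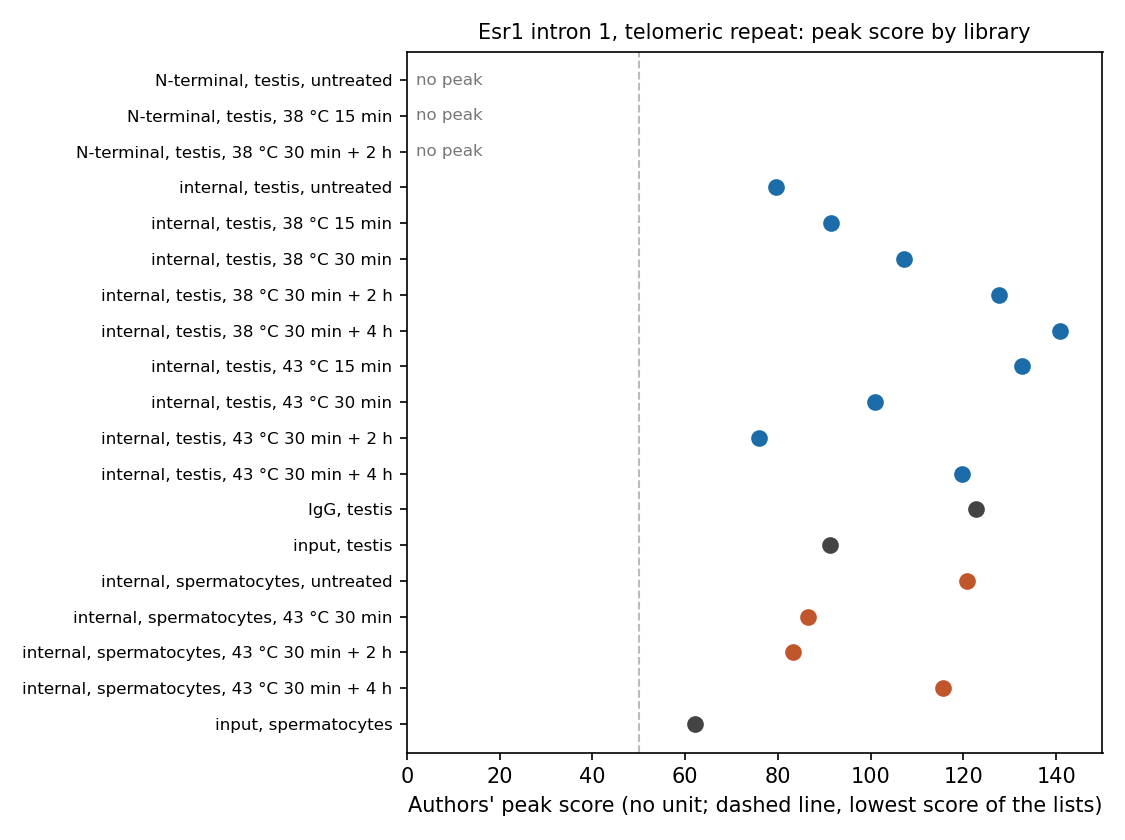
Authors' peak score (no unit) of the Esr1 intron 1 repeat locus in each of the 19 libraries, 1 point per library, with blue for testicular cells, orange for spermatocytes and dark grey for background. The 13 internal antibody libraries lie between 75.8 and 141 and the background libraries between 62.1 and 123, while the 3 N-terminal libraries have no peak.

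The telomeric repeat as a class was called in every list. TTAGGG or CCCTAA runs took 88 to 90 peaks in the N-terminal libraries and 123 to 147 in the other 16, and 96.4% to 100% of them lay at background positions. Loci of this class called in all 16 other libraries numbered 125. Of these, 90 were in all 3 N-terminal lists, 8 in 1 or 2 of them and 27 (21.6%), Esr1 among them, in none. Of the 544 loci of any kind called in all 16 other libraries, 88 (16.2%) were in no N-terminal list, so such absence was not particular to telomeric repeats. Over those 16 libraries the median score of the Esr1 locus was 104, and only 3 of the 125 loci were lower. The loci lacking in the N-terminal lists had median scores of 87.5 to 257, with a middle value of 163, and those found in all 3 had 86.0 to 3100, with a middle value of 438. The file headers place the N-terminal libraries in another folder than the other 16, so antibody and processing cannot be told apart.

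Esr2 encodes estrogen receptor beta, which binds the same hormone and can pair with the alpha form. Its peak within 50 kb was in intron 4 in the untreated testicular library of the internal antibody (chr12:76158512-76158663, 18672 bp from the TSS, score 52.3). In that library 16.2% of antibody-specific peaks scored lower, so it stood near the floor of the list. The 12 other libraries of the internal antibody, the 3 N-terminal ones and the 3 background ones had no Esr2 peak in this window. The remaining Esr2 peak, in an ID_B1 element 102194 bp from the TSS, was in spermatocytes at 4 h of recovery (score 52.6). It lay outside the RefSeq extent of Esr2 and was annotated to an intron of another gene's transcript.

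Nr3c1 encodes the glucocorticoid receptor, which is held ready for its hormone by heat shock chaperones. All 3 of its peaks within 50 kb were in the untreated testicular library of the internal antibody. The highest had a score of 64.2 and lay in a CpG island, 1749 bp upstream of the annotated TSS on chromosome 18 (39488862 to 39489127). The other 2 were 32092 bp upstream with a score of 50.8 and 46480 bp upstream with a score of 57.1, and the authors' annotation placed both in intergenic sequence. Of the antibody-specific peaks of that library 52.9%, 5.96% and 35.7% scored lower than these 3, in the same order.

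The place of these peaks depended on the gene model. The authors' annotation measured Nr3c1 from a TSS at 39487245, whereas the RefSeq gene extends on this side to 39519421. By the RefSeq extent the peak of 32092 bp, at 39519259 to 39519415, ended 6 bp inside the outer end of the gene. This is the upstream end, so by the RefSeq extent that peak lay at the start of Nr3c1. The CpG island peak lay 30294 bp inside the same end. The peak at the gene's outer end was among the weakest of its list. Another 7 antibody-specific peaks given to Nr3c1 lay beyond 50 kb, 5 in the untreated testicular library, 1 in spermatocytes at 2 h of recovery (158005 bp, score 57.7) and 1 at 4 h (165338 bp, score 78.1). All 7 lay outside the RefSeq extent of Nr3c1. Those downstream of the TSS, both spermatocyte peaks among them, were annotated to introns of another gene's transcript.

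Rarb, Rara and Rarg encode the retinoic acid receptors beta, alpha and gamma. Rara is needed for the cycle of the seminiferous epithelium and Rarg for the differentiation of spermatogonia, and neither had a peak. Rarb had 1 antibody-specific peak within 50 kb, in intron 4 in spermatocytes at 4 h of recovery (chr14:16529880-16530030, 45521 bp from a TSS). Its score was 50.9, and 7.79% of the antibody-specific peaks of that library scored lower.

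Beyond 50 kb Rarb, whose RefSeq extent of 651 kb is the longest of the 10 genes, had the most peaks. There were 12 antibody-specific ones, 9 of them in LINE elements and 7 of these in L1Md_T, a young mouse LINE-1 subfamily. Among all genes 38% of antibody-specific peaks over 50 kb from a TSS were in LINE elements and 14.5% in L1Md_T. In the 2 longest lists, which held most of these Rarb peaks, the shares were 42.2% and 18.2%. Peaks are counted per library, so 1 copy called in several libraries counts more than once among the 7. An L1Md_T copy in intron 1 at chr14:16974209-16974459, about 108 kb from the TSS, was held by 3 libraries. It scored 88.6 in untreated testicular cells, 52.4 after 30 min at 38 °C and 60.0 in spermatocytes at 4 h of recovery. Another copy at chr14:17025730-17025985 was the highest-scoring of all Rarb peaks in untreated testicular cells, at 135, and scored 55.8 after 30 min at 38 °C and 66.0 in spermatocytes at 4 h, but it was also called in IgG at 55.2. It therefore counted as background in every SPEN library. A further copy at chr14:16652925-16653163 scored 58.5 in untreated testicular cells and 59.0 in spermatocytes at 4 h. L1Md_T copies resemble each other closely, so the copy to which reads belong is uncertain.

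The windows cut through this series of peaks. The Nr3c1 peak at 46480 bp, score 57.1, was the last inside 50 kb, and the first outside was an L1Md_T peak of Rarb at 54404 bp, score 51.2, after 30 min at 43 °C. At 5 kb the Pparg peak at 3531 bp was the last inside and the Esr2 peak at 18672 bp the first outside.

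Pparg encodes the receptor that drives fat cell differentiation, while Ppara and Ppard control fatty acid oxidation and Vdr binds the active form of vitamin D. Pparg was the only one of these 4 with a peak, and the only receptor gene of the 10 with antibody-specific peaks within 50 kb in more than 1 library. In spermatocytes at 4 h of recovery a peak lay in intron 1 (chr6:115365790-115365971, score 60.8), 3531 bp downstream of the TSS whose sequence is given above, and 54.8% of the antibody-specific peaks of that list scored lower. In the untreated testicular library of the internal antibody another lay in exon 6 (chr6:115463140-115463308, score 53.7), 41158 bp from a further TSS. The 2 sites were apart, so no Pparg site recurred. The same pair of libraries was the exact set for 1399 of the 9110 protein-coding genes compared over 16 SPEN libraries.

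**Figure D3:**
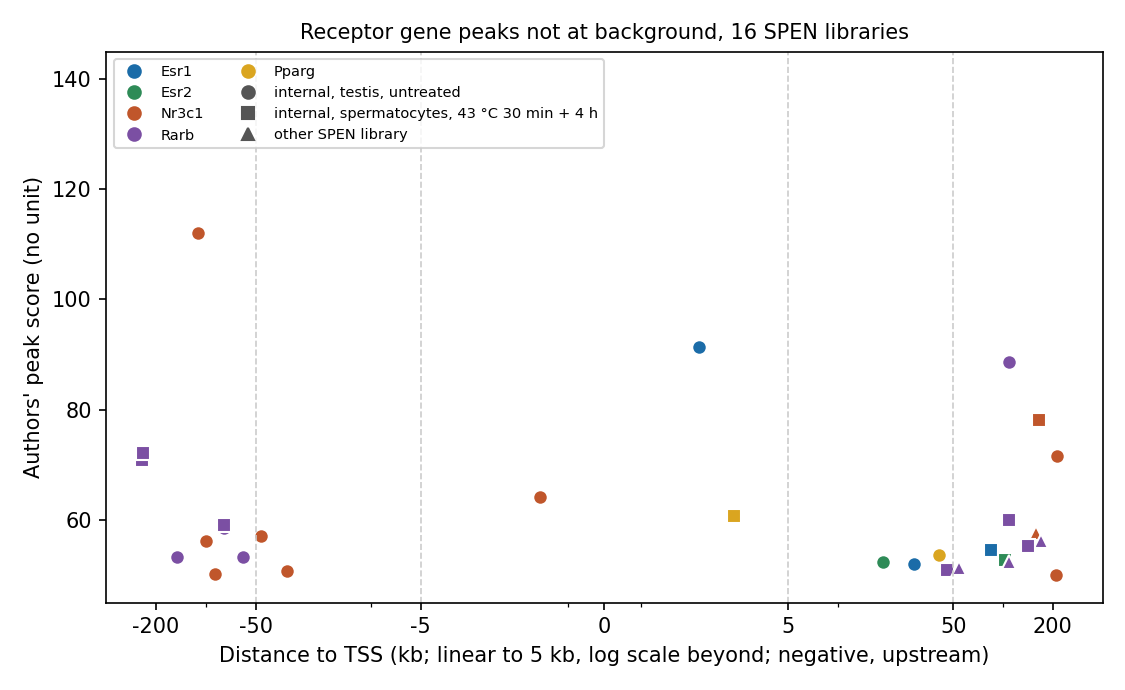
Authors' peak score (no unit) against the distance to the TSS in kb (linear to 5 kb, log scale beyond) for the 30 antibody-specific peaks of the receptor genes, coloured by gene, with circles for untreated testicular cells, squares for spermatocytes at 4 h of recovery and triangles for other SPEN libraries. The peaks within 5 kb are 1 each of Esr1, Nr3c1 and Pparg, and 21 of the 30 lie beyond 50 kb, where some points overlap.

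By the authors' TSS, the near peaks of Esr1 and Nr3c1 lay further out than most near peaks of the same library. In untreated testicular cells 77% of the 5577 antibody-specific peaks within 5 kb of a TSS lay within 1 kb, and the median distance was 353 bp. At the receptor genes the distances were 2562 bp for Esr1 and 1749 bp for Nr3c1. By the authors' TSS 0 of 10 thus had a peak within 1 kb, beside 15.8% of protein-coding genes. By the RefSeq extent, however, the weak Nr3c1 peak of score 50.8 ended 6 bp inside the upstream end of the gene. Repeats took few of the near peaks: 8 of the 9 antibody-specific peaks within 50 kb were annotated to no repeat, as were 58% of such peaks of all genes, and of the 21 beyond 50 kb only 5 were, beside 29.8%. Over the RefSeq extents of the 10 genes, 1.6 Mb in all, untreated testicular cells had 13 antibody-specific peaks or 8.1 per Mb, beside 10.0 per Mb over all chromosomes, and spermatocytes at 4 h had 9 or 5.61 per Mb, beside 2.97. Of those 9 peaks, 5 were in Rarb, 3 in Esr1 and 1 in Pparg, and the other receptor genes had none. The rate thus rested mostly on Rarb and Esr1, with extents of 651 and 394 kb, and the difference was not tested.

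Untreated and heat-shocked testicular cells were compared with the internal antibody. The untreated library had the 7 antibody-specific peaks described above, and the 8 heat-shocked libraries had none at any of the 10 genes within 50 kb. Over these 8 libraries together 0.763% of protein-coding genes had an antibody-specific peak within 5 kb and 3.59% within 50 kb, so 0 of 10 was close to that background. Beyond 50 kb, 2 heat-shocked libraries had 1 antibody-specific Rarb peak each, after 30 min at 38 °C and after 30 min at 43 °C. List length moved with this difference, 27370 against 683 to 1442 antibody-specific peaks, and its part in the result was not tested.

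In spermatocytes the antibody-specific peaks within 50 kb were confined to 1 heat-shocked library, at 4 h of recovery. Untreated cells and those at 30 min of 43 °C or 2 h of recovery had no antibody-specific peak of the 10 genes within 50 kb, where 1.5% of protein-coding genes had one in at least 1 of the 3 and 0.288% had one within 5 kb. At 4 h of recovery Pparg had one within 5 kb and Pparg and Rarb within 50 kb, beside 3.33% (3.09 to 3.57%) and 12.4% (12 to 12.9%) of protein-coding genes. With 10 genes, a count of 2 beside 12.4% resolves no difference. List length moved here too, 8164 peaks against 333 to 389.

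The cell populations did not share an antibody-specific peak of a receptor gene within 50 kb in any matched state. In untreated cells, the 7 peaks of the testicular library had no counterpart in spermatocytes, and at 4 h of recovery from 43 °C the Pparg and Rarb peaks of spermatocytes had none in testicular cells. In each pair 1 list was short: 0.681% of protein-coding genes had an antibody-specific peak within 50 kb in untreated spermatocytes, beside 36.4% in untreated testicular cells, and 0.713% in testicular cells at 4 h, beside 12.4% in spermatocytes. With such shares the absence of a shared peak among 10 genes says nothing particular about them. The N-terminal antibody had no peak of any of the 10 genes at any distance in its 3 libraries, at background positions or elsewhere. In these libraries 0.265% of protein-coding genes had an antibody-specific peak within 5 kb and 1.46% within 50 kb. The internal antibody in the matched states had 7 such receptor gene peaks within 50 kb in untreated cells and none after 15 min at 38 °C or at 2 h of recovery.

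The wider receptor pathway was followed in 6 lists of 103 genes in all, of which 25 (24.3%) had an antibody-specific peak within 5 kb in the untreated testicular library of the internal antibody. Among coregulators and chaperones of receptors 12 of 18 genes had one, beside the 19.4% of all protein-coding genes. The lists were chosen with earlier results of these data known, so such shares are descriptions and not tests. The highest were at Ncor1, the corepressor that SPEN works with (score 149, 215 bp from the TSS), the acetyltransferase genes Crebbp (135, 415 bp) and Ep300 (92.6, 227 bp), the chaperone gene Ptges3 (130, -311 bp) and the coactivator gene Ncoa1 (78.9, 100 bp). Of these 18 genes, 10 (55.6%) had the peak within 1 kb, beside 15.8% of protein-coding genes. The other nuclear receptors gave 9 of 35, led by Rorb (98.6, 759 bp), the germ cell receptor gene Nr6a1 (93.2, 845 bp), Nr4a2 (74.4, 3216 bp), the progesterone receptor gene Pgr (69.4, 1143 bp) and Nr2c1 (67.7, 263 bp).

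The supply and target genes had fewer. For enzymes and carriers of retinoids 2 of 15 genes had a peak within 5 kb, Cyp26c1 (55.8) and Rbp4 (55.0), and for steroid and vitamin D enzymes 0 of 13. Receptor target genes gave 2 of 19, the carnitine palmitoyltransferase gene Cpt1a (112, -4804 bp) and the fatty acid carrier gene Fabp4 (53.1). None of the 3 RXR genes, which encode the partners of the retinoid, vitamin D and PPAR receptors, had one. Ncoa2 (60.1) and Cpt1a (82.9) were the only list genes with such a peak in spermatocytes at 4 h of recovery, and the other 14 SPEN libraries had none. These counts, 1.94% and 0% of 103 genes, stood beside 3.33% of protein-coding genes at 4 h and 0.763%, 0.265% and 0.288% over the heat-shocked testicular, N-terminal and other spermatocyte libraries, and so were near the background. Of 32 marker genes of testicular cell types, 3 (Gata4, Sycp1 and Sycp3), or 9.38%, had a peak within 5 kb in untreated testicular cells, beside 19.4% of protein-coding genes. In spermatocytes at 4 h of recovery 2 (6.25%) had one, beside 3.33%: Sycp1 and the peritubular cell marker Acta2 (-55 bp, score 60.0).

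**Figure D4:**
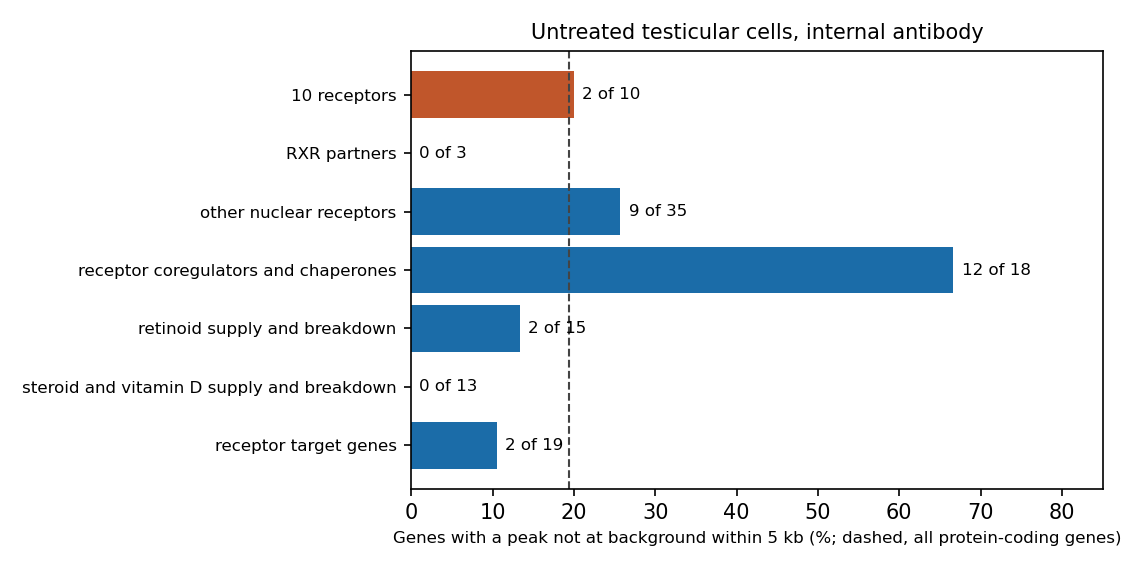
Share of genes (%) with an antibody-specific peak within 5 kb of a TSS in the untreated testicular library of the internal antibody, for the 10 receptor genes (orange) and the 6 pathway lists (blue), with the share of all protein-coding genes, 19.4%, as a dashed line. The receptor genes, 2 of 10, lie at the line and the coregulators and chaperones, 12 of 18, above it. The lists were chosen with earlier results of these data known.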

How the data were processed

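DNA precipitated with SPEN antibodies was sequenced in 16 libraries, with 3 background libraries. Chromatin was sheared to 100 to 500 bp fragments, per the labels' protocols. Bowtie2, SAMtools and HOMER and the build mm10 are named in the submitters' processing notes. Versions, peak threshold and control library are not given in the sources used here. Peak names carry MACS and HOMER annotated the peaks, per the file headers. The peak score is the authors' deposited value; it is not scaled between libraries, and no read totals were used, so depth is unknown. The distance to the TSS in bp and the gene name are the authors' deposited annotation. The BED list and the annotated table of each library held the same peaks and scores.

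An overlap of 1 bp or more counted as sharing. Gene names were matched to RefSeq (GRCm38.p6), where all 10 receptor genes were found. The background share was taken over 21883 protein-coding genes of the placed chromosomes. The overlap step was tested on simulated peaks. Values were computed with Python 3.11.15, pandas 2.3.3, NumPy 2.4.6 and SciPy 1.17.1. Groups came from the sample titles, and with 1 library per condition no test was made between conditions. The receptor genes and the gene lists were chosen with earlier results of these data known. Named in the text are all peaks of the receptor genes within 50 kb and, from each list, up to 5 genes by score with a peak within 5 kb. Alternatives for the windows, score, background, overlap, list length and gene assignment are given in the closing section. Peak sequences are not printed, since no genome was used here.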

Additional observations from a re-analysis of the deposited data

Results flagged for a closer look

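Peaks beyond the 50 kb window, which the counts within 5 and 50 kb leave out, outnumbered those of each background library by more than 3 at 2 genes. Nr3c1 had 5 antibody-specific peaks there in the untreated testicular library of the internal antibody, and the background libraries had none. At least as many were given to 2.56% of protein-coding genes in that library. The highest, score 112, lay -111773 bp from the TSS in an L1Md_A element, and all 5 lay outside the RefSeq extent of Nr3c1. Rarb had 5 such peaks in spermatocytes at 4 h of recovery from 43 °C, with scores of 55.3 to 72.2, where IgG had 1, and 0.37% of protein-coding genes had at least as many in that library. Of these 5, 1 lay in a 5' UTR exon of a Rarb transcript (chr14:16818818-16819009, score 70.8). The others were annotated to repeats, L1Md_T and L1Md_A among them. The L1Md_A peak, score 72.2, was the highest of the 5 and lay outside the RefSeq extent of Rarb. That extent, 651 kb, is the longest of the receptor genes, and the share of 0.37% was not adjusted for gene length. The lists differ in length, with 27370 and 8164 antibody-specific peaks against 476 to 1214 in the background libraries. For Rarb the comparison rests on 1 IgG peak, and the 2 counts followed unlike rules. The IgG peak was set against the inputs only. The spermatocyte peak at the same position, score 66.0, was left out because it shared bases with that IgG peak. The differences were not tested.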

How the results depend on the processing

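Values are set against the counts given above: in the untreated testicular library of the internal antibody 2 genes within 5 kb and 4 within 50 kb, 0 genes in the heat-shocked testicular libraries and 2 in spermatocytes within 50 kb, and 9 antibody-specific peaks in all. The N-terminal count was 0 under every alternative run. IgG alone or inputs alone as background, background peaks widened by 500 bp, and a background peak covering at least 50% of the peak moved none of the 6 counts by over 1.5 times.

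With windows of 1 kb around the authors' TSS the 5 kb count was 0. Within 25 kb spermatocytes had 1 gene and there were 4 peaks in all; within 100 kb the heat-shocked libraries had 1 gene and there were 15 peaks. At a score of at least 60 the 50 kb counts were 2 genes in untreated testicular cells and 1 in spermatocytes, with 3 peaks in all; at 75 they were 1, 0 and 1, and the 5 kb count was 1. With only the top 1000 peaks by score in each list the untreated counts at 5 kb and 50 kb, the spermatocyte count and the number of peaks were all 0. With no background removed the heat-shocked libraries had 1 gene, Esr1, and there were 22 peaks. By the nearest RefSeq gene span, 5 genes were counted at 5 kb in untreated cells and 1 in the heat-shocked libraries, with 26 peaks. This rule counts a peak anywhere inside a gene's extent, which reaches 651 kb at Rarb. The share of all protein-coding genes was not taken by this rule, so these counts have no background beside them. Leaving out spermatocytes at 4 h of recovery left 0 genes in spermatocytes, and leaving out the untreated testicular library left 2 peaks, both choices made after seeing the data. The cause was not tested where the construction does not show it. No paired analysis was possible because each condition had 1 library and the labels give no replicate numbers.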

Other observations

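Nr3c2, the mineralocorticoid receptor gene, had an intronic antibody-specific peak of score 52.9, 10321 bp from its TSS, after 30 min at 38 °C. It was singled out after its values were seen.

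Within the RefSeq extent of Esr1, 6 antibody-specific peaks had been assigned to the neighbouring gene Syne1 by the authors' annotation. In untreated testicular cells 4 of them scored 74.0 to 131, and 3 of these were in L1Md_T. In spermatocytes at 4 h of recovery 2 scored 69.0 and 53.7, and the former overlapped an untreated testicular peak (chromosome 10, 4912219 to 4912428).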
